A study of Mus musculus with 386 samples.

Results

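Among 22 single-cell libraries from mouse ovaries at embryonic day 17.5 (E17.5), 4 had low levels of germ cell transcripts. They are libraries 8, 10, 15 and 16 of that stage, out of 386 libraries in the series, and each was set beside the other 18 E17.5 libraries. They were picked by their measured levels of germ cell genes, so every value below is a description and no test was made. Library 10 carried mast cell genes, libraries 8 and 15 carried early red cell genes with few late ones, and library 16 carried granulosa cell genes together with keratins.

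The series holds cells labelled as female germ cells, each hand-picked after ovaries were dissociated. There were 22 libraries at E17.5 and 47 at postnatal day 6.5, and the rest came from postnatal day 2.5. Each library holds the polyadenylated RNA of 1 cell, made with Smart-seq2, which copies whole transcripts and has no molecular identifiers. The labels name no strain, genotype, treatment or animal for any stage, so libraries cannot be assigned to separate fetuses. Levels are counts per 1000000 gene counts (CPM), which are not divided by transcript length, so a level is compared between libraries and not between genes.

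A fetal ovary holds more than germ cells. Oocytes in meiotic prophase lie among pregranulosa cells, which are supporting cells that come partly from the surface epithelium, and among stromal and blood vessel cells. Mast cells are tissue-resident blood cells packed with granules of proteases and histamine. Red cell precursors first switch on the regulators GATA1 and KLF1 and surface proteins such as ERMAP, then fill with globin and heme. The factors GATA1 and GATA2 act in both of these blood lineages.

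The upstream sequences of 3 genes that mark the blood-like libraries are shown here because GATA factors bind DNA at short words. The words searched were AGATAA or AGATAG, or one that starts with T instead (TGATAA or TGATAG), on both strands, and none of the 4 is held by another. The sequences are from RefSeq (GRCm38.p6), 190 bases that end next to the gene start, 5′ to 3′ on the gene's strand, and capitals mark any of the 4 words or its reverse complement. Cpa3, a mast cell carboxypeptidase, is at chr3:20242182-20242371 (minus strand), Klf1, the red cell regulator, at chr8:84901738-84901927 (plus strand), and Ermap, a red cell surface protein, at chr4:119190012-119190201 (minus strand).
Cpa3: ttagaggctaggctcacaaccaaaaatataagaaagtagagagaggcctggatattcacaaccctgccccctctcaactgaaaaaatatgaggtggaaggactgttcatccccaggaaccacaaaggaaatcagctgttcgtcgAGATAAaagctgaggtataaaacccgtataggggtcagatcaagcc
Klf1: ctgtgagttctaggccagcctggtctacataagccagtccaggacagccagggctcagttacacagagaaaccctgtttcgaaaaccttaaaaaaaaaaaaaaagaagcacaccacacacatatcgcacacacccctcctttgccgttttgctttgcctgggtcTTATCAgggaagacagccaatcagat
Ermap: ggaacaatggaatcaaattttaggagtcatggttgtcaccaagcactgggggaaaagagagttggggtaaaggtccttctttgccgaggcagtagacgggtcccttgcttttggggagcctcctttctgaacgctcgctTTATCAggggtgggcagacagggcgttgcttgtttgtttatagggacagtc
Each of the 3 held 1 word in this window. Of 32851 promoters in the table, 20.3% held at least 1 within 190 bases of the RefSeq start, so a match is common. In the same window the mast cell protease gene Cma1 had 1 word and Amhr2, the receptor for anti-Müllerian hormone, had 0. A match is a description of the letters and not a binding site.

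In GENCODE M21 on the same build, Cma1 (ENSMUSG00000022225.7) spans chr14:55941451-55944675 on the minus strand and Cpa3 (ENSMUSG00000001865.2) chr3:20215620-20242181 on the minus strand. Klf1 (ENSMUSG00000054191.8) spans chr8:84901928-84905291 on the plus strand and Ermap (ENSMUSG00000028644.16) chr4:119175457-119190011 on the minus strand. Amhr2 (ENSMUSG00000023047.11) spans chr15:102445367-102454633 on the plus strand. All 5 encode proteins.

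The 4 libraries were not shallow. Library 8 had 16125066 gene counts, more than any of the other 18 (1016746 to 10283446, median 5711493), and libraries 10, 15 and 16 had 9021432, 9621586 and 7561232. Thinned to 1000000 counts each, they showed 12893, 12202, 12315 and 12813 genes in the order 8, 10, 15, 16, inside the range of the others (11458 to 14901). Gene counts per spike-in count were 143.2, 127.7, 129.5 and 85.9, against 16.6 to 138.4 with a median of 76.6, so only library 8 lay above that range. At this depth a gene with 0 counts could still stand at up to 0.186 CPM in library 8 and 0.397 CPM in library 16, taking 3 counts as the limit of detection.

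Libraries with neighbouring numbers shared transcripts, which touches the results below. In library 10 the 8 mast cell proteases with at least 1000 counts summed to 1045082 counts. Libraries 1, 3, 4, 5, 6, 7 and 9 each held between 13133 and 17165 counts of the same 8 genes, 1.26 to 1.64% of the level in library 10, although their own depths ran from 1016746 to 9789067. Library 2 held 2.82% and library 8 held 4.63%.

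In library 8 the 8 proteases kept nearly one ratio to library 10, from 4.37 to 5.05% gene by gene. Libraries 11 to 22 held at most 0.0144% of the counts of library 10. Counts of the germ cell genes were compared with a sum over several libraries instead, so the shares that follow are not levels. In CPM their sum stood at 12.7, 7.79, 6.4 and 18.3% of the median of the 18, in the order 8, 10, 15, 16. Library 8 held 4.59% of the summed counts of the 6 germ cell markers in libraries 1 to 7 and 9, with single genes from 4.04 to 5.39%. Library 10 held 1.58% of that sum (single genes 1.39 to 1.88%). Library 15 held 1.13% of the sum over libraries 11 to 14 and 17 to 22 (1.03 to 1.58%), and library 16 held 2.54% (1.22 to 5.21%). Of the sum over the opposite block, libraries 8 and 10 held 3.74% (single genes 2.69 to 6.17%) and 1.29% (0.853 to 2.88%). Libraries 15 and 16 held 1.38% (1.02 to 2.33%) and 3.11% (1.11 to 4.52%) of theirs. Both blocks hold libraries high in germ cell genes, so these summed shares cannot show whether the counts followed the number block. The origin of these shared counts was not tested. For the main lists and some genes, values are given below also against libraries 1 to 7 and 9 and libraries 11 to 14 and 17 to 22 separately.

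**Figure D1:**
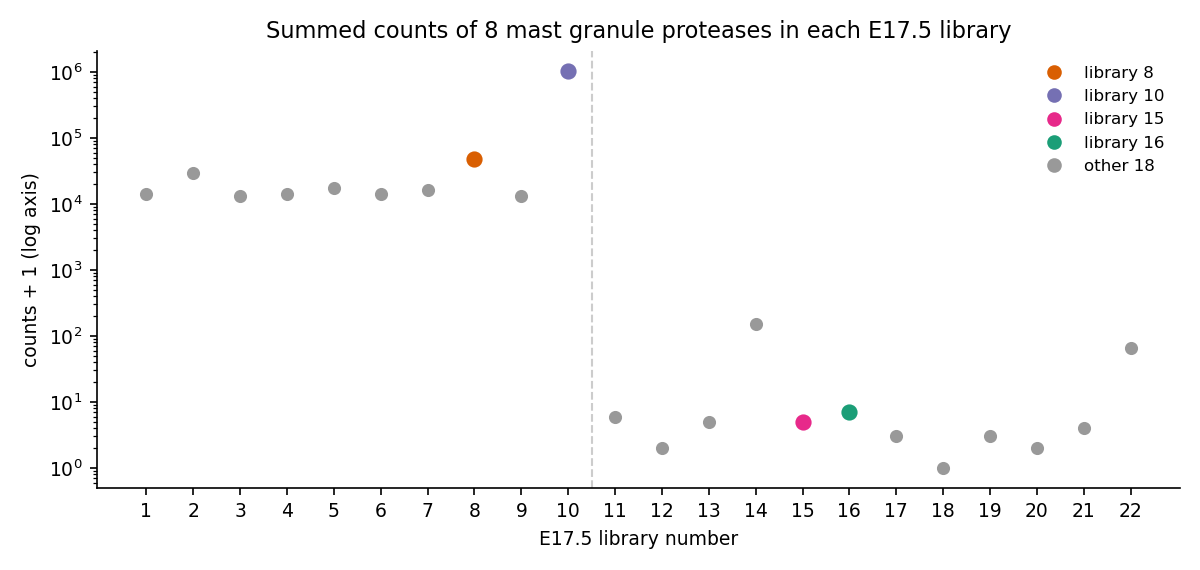
Summed counts, plus 1, of 8 mast cell proteases (log axis) in each E17.5 library by its number, with 1 point per library and the 4 libraries with low germ cell levels in colour. Libraries 1 to 9 hold 13133 to 48422 counts beside 1045082 in library 10, and libraries 11 to 22, right of the dashed line, hold at most 0.0144% of it.

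Germ cell genes stood lower in all 4 libraries, which is how they were chosen. The list of Ddx4, Dazl, Dppa3, Mael, Taf4b and Sycp3 summed to 488 CPM in library 8, 300.1 in library 10, 246.6 in library 15 and 705 in library 16. The other 18 ranged from 1175 to 5294 CPM with a median of 3851. Library 18, at 1175 CPM, and library 7, at 1811 CPM, came next in order, just outside the 4.

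Dazl, an RNA-binding protein of germ cells, stood at 161.2, 95, 85.1 and 219.3 CPM in libraries 8, 10, 15 and 16, and at 515 to 2316 CPM in the others (median 1130). Ddx4, the germ cell RNA helicase, stood at 94.2, 43.6, 52 and 98.1 CPM, against 71.5 to 1357 (median 530). Dazl separated the 4 from all others, and for Ddx4 libraries 8 and 16 lay inside the lower end of the range. As a percentage of the median of the 18, the 6 genes had a median of 15.5, 9.59, 8.24 and 19% in the order 8, 10, 15, 16. Dppa3, a maternal protein that protects DNA methylation, was the least reduced, at 74.8, 51.5, 31.1 and 41.9%, and its own range in the others was wide (1.65 to 554 CPM).

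Genes of meiotic prophase, which build the paired chromosome axes and make and repair the breaks between them, followed. The list had 33 of 37 names in the table. It summed to 1267, 906, 842 and 1603 CPM in libraries 8, 10, 15 and 16, below the 3848 to 17777 CPM of the others. Of 30 members with a median of at least 10 CPM, 23, 26, 25 and 21 were at least 4-fold below that median, against 15.2, 31.4, 21.5 and 20.2% of all genes tested this way. Sycp1, which forms the central part of the synaptonemal complex, stood at 143.7, 145.7, 94 and 179.7 CPM, against 607 to 2166.

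A few members stood apart within these lists. Hormad2, an axis protein, stood at 55.8 CPM in library 8 and 62.3 CPM in library 15, above the median of 38.7 CPM in the others, but at 9.64 and 7.54 CPM in libraries 10 and 16. Rec8, the meiotic cohesin, stood at 204.9 CPM in library 16, above the highest of the 18 (60.4 CPM, in library 19), and at 2.6 CPM or less in the other 3. Dnd1, a germ cell RNA-binding protein, stood at 29 CPM in library 16, above the 0 to 2.95 CPM of the others. The piRNA-pathway gene Tdrd1 stood at 31.5 and 40 CPM in libraries 8 and 10 and at 1.46 and 2.25 CPM in libraries 15 and 16. All lay within the wide range of the 18 (0.681 to 774, the highest in library 3). This split follows the number blocks, and the part of shared counts in it was not tested.

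Regulators of oocyte growth differed among the 4 libraries without 1 common order. Nobox stood at 21 and 13.6 CPM in libraries 8 and 10 and at 0.52 and 0.397 CPM in libraries 15 and 16. Sohlh1 stood at 26.5, 35.1, 0.208 and 0.397 CPM in libraries 8, 10, 15 and 16. Both were thus higher in libraries 8 and 10, which belong to the same number block. Figla, at 27.2, 18.2, 2.39 and 55.9 CPM, and Sohlh2, at 10.8, 4.21, 16.6 and 48.4 CPM, were highest in library 16 instead. In the other 18 Nobox and Sohlh1 reached 696 and 913 CPM, both in library 3, which is in the number block of libraries 8 and 10. The part of shared counts in these values was not tested. The 7-gene list summed to 110.4, 83.6, 23 and 124.5 CPM in libraries 8, 10, 15 and 16, all below the lowest of the 18 (128.4 CPM).

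**Figure D2:**
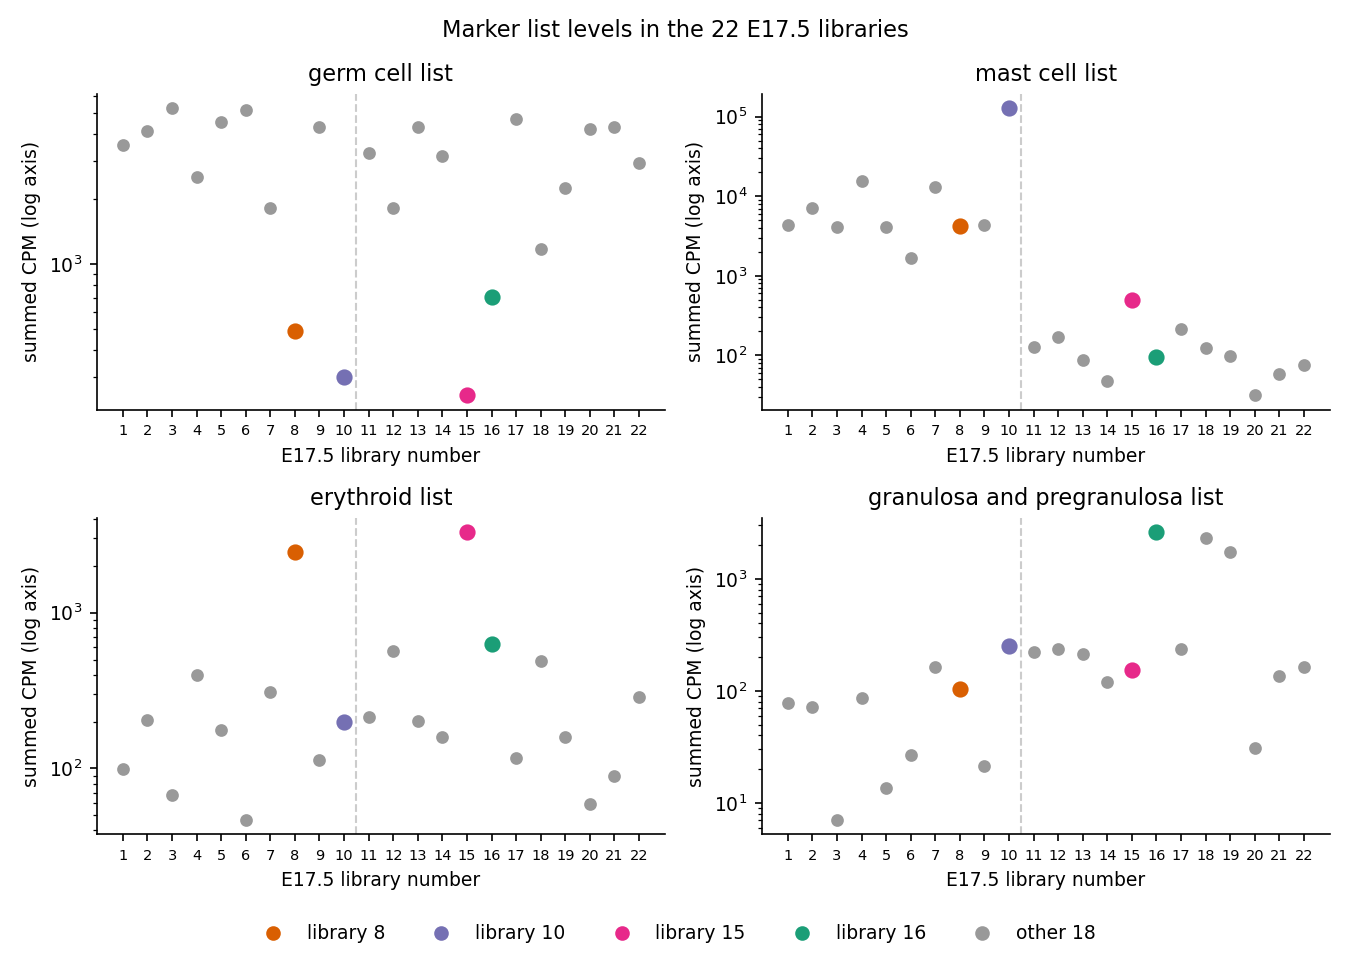
Summed CPM (log axis) of 4 marker lists in the 22 E17.5 libraries by library number, with 1 point per library. Library 10 stands alone on the mast cell list at 129030 CPM, libraries 8 and 15 on the erythroid list at 2440 and 3282 CPM, and library 16 lies just above libraries 18 and 19 on the granulosa list.

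Library 10 was mast cell-like. Of 16 mast cell markers, 14 had at least 10 CPM, all 14 lay above the highest of the 18, against 18.3% of the 6818 genes tested, and 13 were at least 4-fold above it, against 7.26%. All 14 were also at least 4-fold above the median of the 18, against 28.1% of those genes. The list summed to 129030 CPM, beside 31.3 to 15740 CPM in the others with a median of 191.2. Library 4, one of the shallow libraries of the first number block, set that highest value. Among libraries 11 to 14 and 17 to 22 the highest was 211.3 CPM, and library 15 stood at 492 CPM.

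The granule proteases took 11.6% of all counts in library 10. Cma1, a chymase, stood at 33191 CPM (95% Poisson interval 33072 to 33310), against 0 to 4042 CPM in the others and a median of 15.4. Cpa3 stood at 27647 CPM (0 to 3276 in the others, median 0.0726) and Tpsb2, a tryptase, at 36553 CPM (0 to 4249, median 2.07). None of the 3 overlapped the other libraries. Within libraries 11 to 22 the same genes reached at most 25.4, 0.145 and 3.77 CPM. No library of the postnatal stages exceeded 59.3 CPM for the summed proteases. Mcpt4, another chymase, at 6200 CPM, Tpsab1, a tryptase, at 5304 CPM and Prss34, a protease first known from mast cells and basophils, at 6464 CPM completed the abundant set. Mcpt1 and Mcpt2, chymases of mucosal mast cells, stood at 18.6 and 63.1 CPM. Mcpt9 and Gzmb, which encodes granzyme B, had 0 counts.

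The machinery that loads and releases granules was present beside the proteases. Hdc, which makes histamine, stood at 8026 CPM (0 to 974 in the others). Slc18a2, which pumps histamine into granules, stood at 1033 CPM (0.0972 to 130.8). Srgn, the granule proteoglycan core, stood at 2803 CPM (0.316 to 361), and Rab27b, a secretory GTPase, at 1438 CPM (0 to 148.5). All 4 lay above the highest of the 18. Of the 10 genes in this list 6 were at least 4-fold above it, against 7.26% of genes tested. For Hdc libraries 1 to 7 and 9 ranged from 98.8 to 974 CPM, and libraries 11 to 14 and 17 to 22 reached at most 1.27 CPM.

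Receptors and signalling proteins of mast cells were also high. Kit, the stem cell factor receptor of mast cells, which oocytes use too, stood at 3611 CPM, against 12.6 to 1936 CPM in the others. Il1rl1, the interleukin-33 receptor, stood at 1925 CPM (0 to 247.8). Both genes differed between the number blocks of the 18. The median of Kit was 748 CPM in libraries 1 to 7 and 9 and 34 CPM in libraries 11 to 14 and 17 to 22, and that of Il1rl1 was 51.5 and 0.538 CPM. The IgE receptor was uneven across its subunits. Ms4a2, the beta chain, stood at 294.2 CPM (0 to 35.4) and Fcer1g, the gamma chain, at 900 CPM (0 to 101.3), whereas Fcer1a, the alpha chain, had 0 counts. Fcer1a had a count in only 1 of 386 libraries. How reads were assigned to its row was not given in the sources used here. Lat, at 53.4 CPM, and Lcp2, at 757 CPM, both adapters, and the phosphatase Inpp5d, at 915 CPM, lay above all of the other 18. Syk, a kinase of the same pathway, at 69.8 CPM, and Plcg1, at 167.5 CPM, did not.

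Mrgprb2, the receptor through which connective tissue mast cells answer charged peptides, stood at 1120 CPM, and its relative Mrgprb1 had 0 counts. Enzymes of lipid mediators were high as well. Hpgds, which makes prostaglandin D2, stood at 611 CPM (0.389 to 70.8 in the others) and Alox5, which starts leukotriene synthesis, at 973 CPM (0 to 109.2). Ptgs2, the inducible cyclooxygenase, had 0 counts, and Ptgs1, the constitutive form, stood at 78.1 CPM. Cyp11a1, the first enzyme of steroid synthesis, stood at 1230 CPM, above the highest of the others at 116.1. Its partner Star, which carries cholesterol into mitochondria, stood at 0.333 CPM.

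Among regulators, Gata2 stood at 1978 CPM, above the 9.63 to 388 CPM of the others, whose medians were 174.4 CPM in libraries 1 to 7 and 9 and 53.1 CPM in libraries 11 to 14 and 17 to 22. Spi1, the factor PU.1 of myeloid cells, stood at 181.5 CPM (0 to 19.7). Gata1 stood at 85.7 CPM and Klf1 at 58.1 CPM, both within the range of the others. Mitf, a mast cell and pigment cell factor, stood at 44.8 CPM, also within it.

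Among the 12 genes furthest above the other libraries by the naming rule were Lat, Arhgef10l, Plek, Gimap5, Slc25a45, C3ar1, Sh3kbp1, Capn5, Arhgap27, Cd244a and Hrh4, at 53.4 to 676 CPM. Hrh4, a histamine receptor, stood at 83.5 CPM and C3ar1, the receptor for complement C3a, at 99.4 CPM. Among the lowest 6 against the others were Anapc10, Mrpl40, Gmps, Ddx1 and Spc25. Spc25, a kinetochore protein, stood at 12.9 CPM against 89.9 to 298.5.

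Other blood cell kinds were checked by their own lists. Of 11 macrophage genes, Csf1r, C1qa, C1qb, C1qc, Adgre1, Lyz2 and Aif1 had 0 counts, while Cx3cr1 (961 CPM), Tyrobp (503 CPM) and Fcer1g (900 CPM) were high. Of 6 basophil genes, 4 had at least 10 CPM and all 4 lay above the highest of the 18, and the list summed to 7277 CPM against at most 853. Prss34 made most of that sum. Cd200r3, a receptor shared by mast cells and basophils, stood at 710 CPM, Mcpt8, a basophil protease, at 58.5 CPM and Il3ra, the interleukin-3 receptor alpha chain, at 44.9 CPM, while Ccr3 had 0 counts. The basophil list was thus not low in library 10. Of the 9 megakaryocyte genes 7 had 0 counts, with Itga2b at 228.9 CPM and Gp1ba at 416 CPM. Of 8 lymphocyte genes 4 had a count, and only Il7r, the interleukin-7 receptor, passed 10 CPM, at 44.2 CPM (0 to 6.88). Cd3d, Cd79b and Nkg7 had 0 counts. All 12 general leukocyte genes lay above the highest of the 18, against 18.3% of the genes tested, among them Ptprc, which encodes CD45, at 159.5 CPM (0 to 22.6).

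Mitosis genes were low in library 10, and DNA replication genes less so. The 20 replication genes summed to 1897 CPM, just below the 1971 to 4755 CPM of the others. Of 19 with a median of at least 10 CPM, 5 were at least 4-fold below it, against 31.4% of all genes tested. The 20 mitosis genes summed to 496 CPM, below the 1640 to 4513 CPM of the others, and 13 were at least 4-fold below the median, against 31.4% of all genes tested. Under TMM scaling the median gene of library 10 moved from a log2 ratio of -0.84 to -0.12.

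Libraries 8 and 15 were erythroid-like, with the genes of early red cell precursors and few of the late ones. Of 19 erythroid genes in the table, both had 12 with at least 10 CPM. In library 8, 10 lay above the highest of the 18, against 12.6% of 7332 genes tested, and 5 were at least 4-fold above it, against 1.05%. In library 15, 10 lay above, against 17.1% of 7044, and 6 were at least 4-fold above, against 1.58%. Against the median of the 18, 11 were at least 4-fold above in library 8 (20.5% of genes tested) and 12 in library 15 (22.7%). The list summed to 2440 CPM in library 8 and 3282 CPM in library 15, and to 46.7 to 566 CPM in the others with a median of 167.8. The highest value among the others was in library 12.

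Klf1 stood at 676 CPM (interval 663 to 689) in library 8 and 545 CPM (530 to 559.98) in library 15, against 12.5 to 234.2 CPM in the others with a median of 25.9. Gata1 stood at 320 and 454 CPM (8.28 to 184.4) and Epor, the erythropoietin receptor, at 160.4 and 169.7 CPM (2.14 to 65.9). Neither library overlapped the others for any of the 3. Among libraries 1 to 7 and 9 the highest Klf1 was 113.1 CPM in library 4, and among libraries 11 to 14 and 17 to 22 it was 234.2 CPM in library 18.

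Red cell surface proteins were the clearest group. Ermap stood at 611 CPM (interval 599 to 624) in library 8 and 621 CPM (605 to 637) in library 15, against 3.01 to 100.3 CPM in the others. Rhag, an ammonium channel of the Rh complex, stood at 317.3 and 540 CPM (4.38 to 57). Kel, a blood group protease, stood at 108.8 and 423 CPM (2.15 to 25.5). For all 3 genes both libraries lay above the range. Rhd stood at 127.6 and 426 CPM, and library 18 came close to the first at 122.5 CPM. Hemgn, a nuclear protein of blood precursors, stood at 113.4 and 114.8 CPM (0.194 to 18), and Cldn13 at 71.6 and 161.4 CPM (0.781 to 21.3).

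The libraries differed from each other within the same list. Gfi1b, a repressor of red cell and platelet lineages, stood at 456 CPM in library 15, above all of the other 18, and at 115.97 CPM in library 8, below library 12. Epb42, a membrane skeleton protein, stood at 46.8 CPM in library 8 and at 0 counts in library 15. Library 8 also had more Kit (771 against 384 CPM), Gata2 (412 against 40.2 CPM) and Lyl1 (154.7 against 83.3 CPM), genes of earlier blood progenitors. Kit and Gata2 are abundant in library 10, with which library 8 shared counts, and the part of that in these values was not tested.

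**Figure D3:**
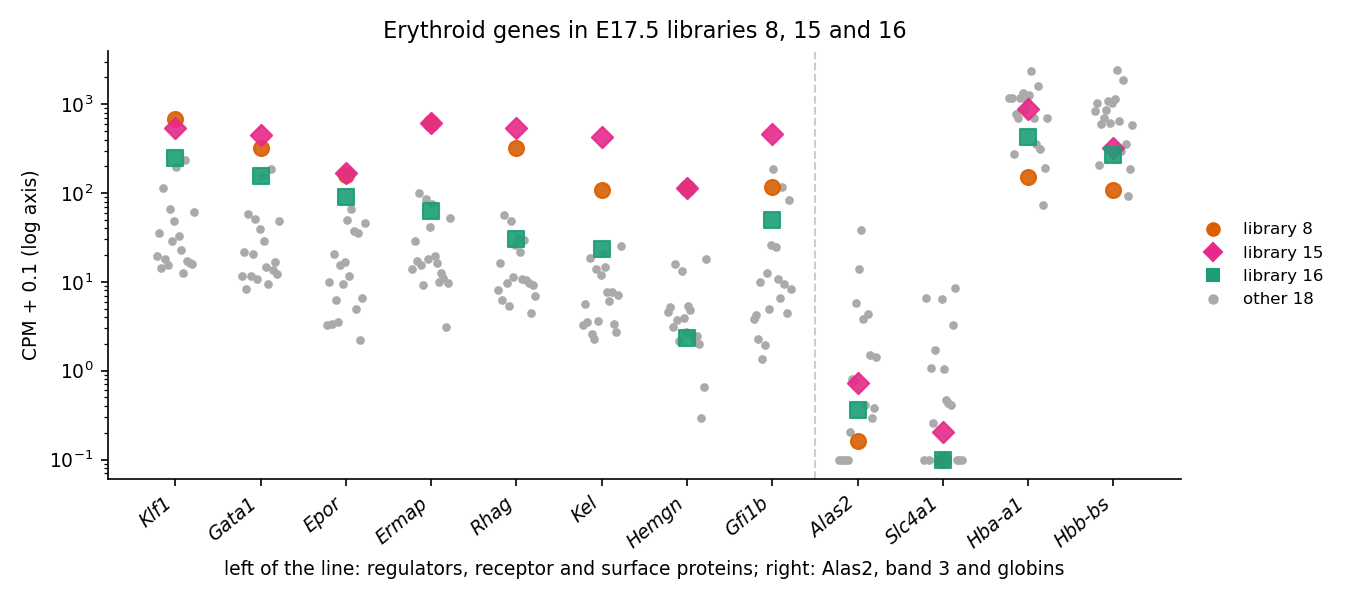
CPM plus 0.1 (log axis) of 12 red cell genes in libraries 8, 15 and 16 and in the other 18 E17.5 libraries, with 1 point per library. Left of the dashed line libraries 8 and 15 lie above the grey points for most genes, and right of it, for Alas2, Slc4a1 and the globins, they lie among or below them.

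Late red cell genes did not follow. Alas2, the erythroid enzyme that starts heme synthesis, stood at 0.062 CPM in library 8 and 0.624 CPM in library 15, within the 0 to 38.4 CPM of the others. Slc4a1, the anion exchanger band 3, had 0 counts in library 8 and stood at 0.104 CPM in library 15. Car1, a red cell carbonic anhydrase, Trim10 and Trim58 had 0 counts in both. Globin transcripts summed to 319 CPM in library 8 and 2086 CPM in library 15, within the 214.1 to 5824 CPM of the others. Library 8 stood near the bottom of that range, and library 15 close to the median of 1822 CPM. The embryonic globins Hbb-y, Hbb-bh1, Hbb-bh2 and Hba-x had 0 counts in both. Globin genes have near-identical copies, so the split among them is uncertain.

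Heme and iron genes other than Alas2 were high. The 14 heme genes summed to 1624 CPM in library 8 and 2465 CPM in library 15, against 324 to 1196 CPM in the others. Alad, the second enzyme of the pathway, stood at 439 and 507 CPM (9.4 to 347). Cpox stood at 237.8 and 91.4 CPM (0.292 to 69.8), and both libraries lay above the range for these 2 genes. Tfrc, the transferrin receptor, stood at 605 CPM in library 8 and 442 CPM in library 15, and the second lay within the range of the others (57.9 to 521). Fth1, the ferritin heavy chain, stood at 1674 and 2380 CPM (208.7 to 1274).

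Genes of the red cell membrane skeleton and surface summed to 3094 and 3970 CPM, against 420 to 1099 CPM. Of the 20 genes 10 lay above the highest of the 18 in library 8 (12.6% of genes tested) and 11 in library 15 (17.1%). Add2, beta-adducin, stood at 242.5 and 253.2 CPM (1.65 to 68.9). Ank1, the ankyrin that ties spectrin to the membrane, stood at 109.1 and 50 CPM (0 to 27), and Aqp1, the water channel, at 206.3 and 94.3 CPM (0.194 to 40.3). Dmtn, which encodes dematin, stood at 2.6 and 40.9 CPM, within the 0.681 to 100.5 CPM of the others.

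The named genes furthest above the others in library 8 were Tap1, Rab3il1, Eng, Tmc8, Slc38a5, Ermap, Hemgn, Slc25a24, Sphk1, Sept8, Mfsd2b and Rhag. Tap1, a peptide transporter of antigen presentation that no list here held, stood at 66.4 CPM in library 8, 45.9 CPM in library 16 and 0.208 CPM in library 15. In library 15 they were Soat2, Slc26a1, Pheta2, Slc38a5, Gstp3, Cth, Kel, Ticam1, Slc52a3, Slc14a1, Sfrp4 and Accs. Slc38a5, a glutamine transporter, stood at 120.9 CPM in library 8 and 341 CPM in library 15 (1.33 to 18). Sphk1, which makes sphingosine 1-phosphate, stood at 461 and 530 CPM (2.33 to 77.7), and Mfsd2b, which exports it from red cells, at 366 and 241.2 CPM (1.36 to 62.9). Slc14a1, the urea channel of the Kidd blood group, stood at 70.8 and 265.1 CPM (1.41 to 17.8).

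General leukocyte genes were in part high in libraries 8 and 15 and in part low or absent. Fermt3, which encodes kindlin-3, stood at 461 and 270.4 CPM in libraries 8 and 15 (median of the others 22). It also stood at 447.6 CPM in library 10 and 276.4 CPM in library 16, so its high level was not limited to the erythroid-like libraries. Ptprc, Cd53 and Lcp2 had 0 counts in library 15 and stood at 18.8, 8.68 and 19 CPM in library 8. Spi1 had 0 counts in library 15 and stood at 3.72 CPM in library 8. Library 10, with which library 8 shared counts, held Ptprc, Cd53, Lcp2 and Spi1 at 159.5, 287.3, 757 and 181.5 CPM. The part of that in the values of library 8 was not tested. Ikzf1, the factor Ikaros, stood at 470 and 191.5 CPM, above the 0.972 to 135.7 CPM of the others.

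Both libraries held cell cycle transcripts. DNA replication genes summed to 5826 CPM in library 8 and 5022 CPM in library 15, above the 1971 to 4755 CPM of the others. Mitosis genes summed to 4109 and 4032 CPM, within the upper part of the range (1640 to 4513). Cyclin A2, Ccna2, stood at 433 and 446 CPM (17.9 to 258.9) and cyclin B1, Ccnb1, at 397 and 461 CPM (7.88 to 249.95). Both cyclins lay above all of the other 18. Mki67, the proliferation antigen, stood at 296.2 and 196.3 CPM, against a highest value of 191.8 CPM. Not all members were high. Of 19 replication genes with at least 10 CPM in library 8, 4 lay above the highest of the 18 (12.6% of genes tested). In library 15, 2 of 18 did (17.1%). Of 20 mitosis genes, 7 in library 8 and 6 in library 15 lay above it. Cenpf, a mitosis gene, stood at 94.1 and 57.6 CPM, below the lowest of the others (113.3 CPM).

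The lowest named genes in library 8 were Kdf1, Mcoln1, Sycp1, Taf7l, Rimklb and Asz1, and in library 15 Lrrc42, Sycp1, Fkbp6, Mael, Asz1 and Tex12. Asz1, a piRNA-pathway gene, stood at 19.8 and 12 CPM, against 77.5 to 434. In library 8, 5 genes were at least 4-fold below the lowest of the 18 (0.184% of 2712 tested) and in library 15 there were 37 (1.36%). Library 10 had 61 (2.25%) and library 16 had 7 (0.258%). These shares rested partly on libraries 7 and 18. Without library 18 they were 3.5% in library 10, 2.05% in library 15 and 0.486% in library 16, and without library 7 they were 0.441% in libraries 8 and 16.

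Library 16 carried genes of both the granulosa and the surface epithelium lists, kinds of cell that can share keratins in the fetal ovary, and the 2 lists together did not settle on 1 of them. Of 22 granulosa and pregranulosa genes, 13 had at least 10 CPM and 13 were at least 4-fold above the median of the 18, against 28.9% of 7489 genes tested. Only 5 lay above the highest of the 18, against 16.4%, and 2 were at least 4-fold above it, against 3.55%. Of 10 surface epithelium genes 5 had at least 10 CPM, 4 were at least 4-fold above the median and 2 at least 4-fold above the highest. The granulosa and pregranulosa list summed to 2601 CPM, and library 18 at 2306 CPM and library 19 at 1727 CPM were close to it. Among libraries 1 to 7 and 9 the highest sum of that list was 162.3 CPM. The surface epithelium list stood at 2.69 times the highest of the 18 and the granulosa list at 1.13 times.

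Amhr2 showed this most plainly. It stood at 721 CPM (interval 702 to 740) in library 16 and at 0.248, 0.111 and 19.9 CPM in libraries 8, 10 and 15. The others ranged from 0 to 939 CPM with a median of 13.1, and libraries 1 to 7 and 9 reached at most 7.77 CPM. Library 18 lay above library 16, and its germ cell list, at 1175 CPM, was the lowest of the 18. Amhr2 therefore did not set library 16 apart.

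Lhx9, a homeobox factor of the early gonad, did. It stood at 310.9 CPM (interval 298.5 to 324) in library 16, against 0 to 13.1 CPM in the others, with 0 counts in libraries 1 to 7 and 9. Hsd17b7, an enzyme of cholesterol and estradiol synthesis, stood at 205.1 CPM (0.156 to 36.8). Gata4, a factor of gonadal somatic cells, stood at 515 CPM (0 to 256.1) and Wt1, the Wilms tumour factor, at 268.3 CPM (0 to 224.9), above the highest of the 18 by less than 4-fold. Libraries 1 to 7 and 9 reached at most 8.9 CPM of Gata4 and 0.222 CPM of Wt1. Nr5a1, the steroidogenic factor, stood at 51.7 CPM against a highest value of 45.9.

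Foxl2, the factor that maintains granulosa identity, was near 0. It stood at 2.25 CPM (interval 1.31 to 3.6) in library 16, below the median of 2.5 CPM and far below the 151.8 CPM of library 19. Irx5, Fshr, Amh, Inhba and Rspo1 had 0 counts. Fst, which binds activin, stood at 172.2 CPM (0 to 193.9 in the others). Kitl, the ligand of KIT on oocytes, stood at 164.7 CPM (0 to 525), and Lgr5, a receptor of pregranulosa cells from the surface, at 66.4 CPM (0 to 135.8). These 3 lay within the range set by libraries 18 and 19.

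Epithelial keratins went further. Krt8 stood at 527 CPM (interval 511 to 544), against 0 to 84.8 CPM in the others (at most 2.95 CPM in libraries 1 to 7 and 9), and Krt19 at 121.5 CPM (0.312 to 19.8). Neither overlapped. Krt18, the partner of Krt8, stood at 134.4 CPM, below library 19 at 217.1 CPM, and Krt7 at 37.7 CPM, within the range. Aldh1a2, which makes retinoic acid, stood at 91.9 CPM (1.65 to 136.7). The 10-gene surface epithelium list summed to 922 CPM (4.22 to 342 in the others), nearly all of it from these 5 genes. Its mesothelial markers were at or near 0, with Upk3b at 0.265 CPM and Upk1b and Msln at 0 counts.

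**Figure D4:**
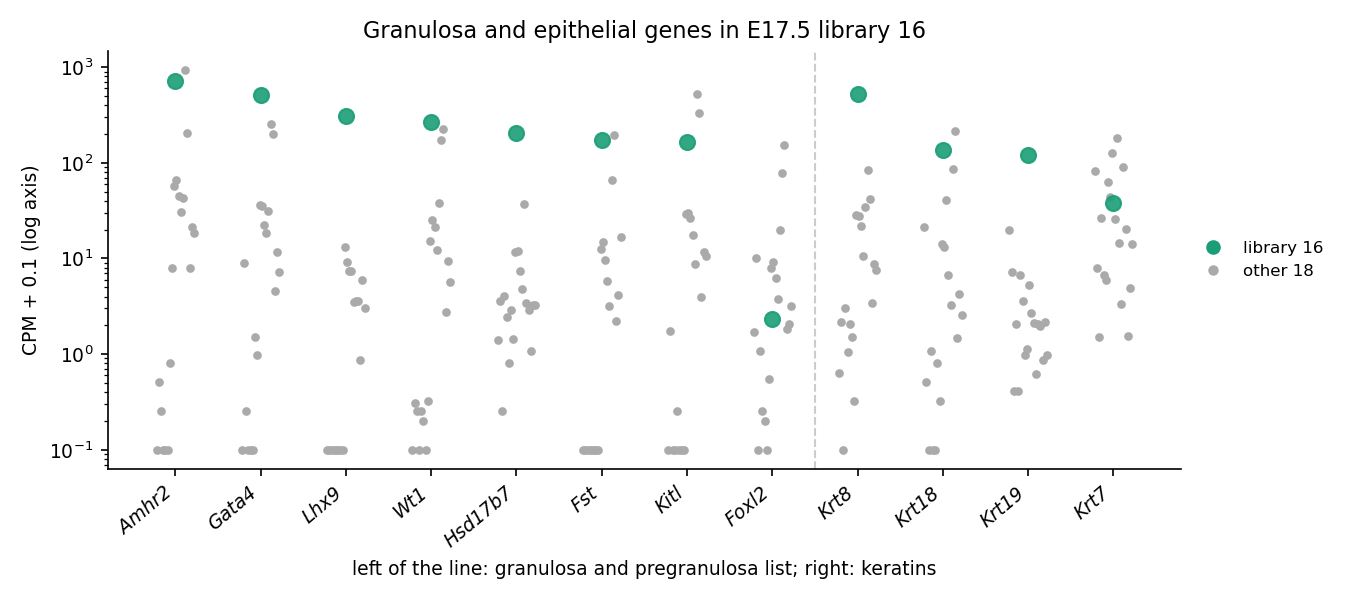
CPM plus 0.1 (log axis) of 8 granulosa and pregranulosa genes and 4 keratins in library 16 and in the other 18 E17.5 libraries, with 1 point per library. Library 16 lies above all grey points for Gata4, Lhx9, Wt1, Hsd17b7, Krt8 and Krt19, within them for Amhr2, Fst, Kitl, Krt18 and Krt7, and in the middle of them for Foxl2.

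Signalling genes of the supporting lineage were mixed. Of 8 WNT and sex determination genes with at least 10 CPM, 4 lay above the highest of the 18, against 16.4% of genes tested, and of 11 such genes of the anti-Müllerian hormone, BMP and activin pathways 0 did. Wnt4 stood at 24.6 CPM (0 to 113.1) and Inha, the inhibin alpha chain, at 39.5 CPM (0 to 102.5). Sox9, the testis factor, had 0 counts. In the list of contact and Notch genes, Heyl stood at 95.6 CPM (0 to 169.2), Hey1 at 63.1 CPM (0.409 to 67.5) and Gja1, the gap junction protein connexin 43, at 328 CPM (0.264 to 435). All 3 lay in the upper part of the range and none above it.

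Lists of other ovarian cell kinds were mixed in library 16. The stroma list summed to 88.2 CPM, near the median of 72.9 CPM. Of its 13 genes, Nr2f2, Pdgfra, Tcf21 and 5 more had 0 counts, while the collagen Col1a2 stood at 70 CPM (0 to 28.2 in the others). The endothelial list summed to 14.5 CPM (5.62 to 156.8), and Cdh5, Kdr, Tie1, Emcn, Esam and Sox17 had 0 counts. The 5 steroidogenic genes summed to 134.8 CPM, above the highest of the 18 at 122.9 CPM. Star stood at 84.5 CPM (0.292 to 55.6) and Hsd3b1, which makes progesterone, at 50.3 CPM (0 to 7.84), while Cyp11a1, Cyp17a1 and Insl3 had 0 counts.

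Library 16 also held some red cell genes. Klf1 stood at 248.6 CPM (interval 237.5 to 260.1), just above library 18 at 234.2 CPM, and Epor at 89.7 CPM against a highest value of 65.9. Gata1 stood at 156.3 CPM, below the 184.4 CPM of library 18. Ermap, at 62 CPM, and Rhag, at 30.3 CPM, lay within the range. The erythroid list summed to 632 CPM, slightly above the 566 CPM of library 12, and 0 of its members were 4-fold above the highest. As a share of the counts in library 8, the 9 erythroid genes tracked ran from 0.93 to 35.5% in library 16. The part of other libraries in these values was not tested.

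The 12 named genes furthest above the others in library 16 were Rasal1, Calb1, Pglyrp1, Pknox2, Chodl, Sh3bp5, Lhx9, Plxdc1, Tmem130, Aldh1l1, Mycbpap and Aldh1a7. Only Lhx9 among them belongs to the granulosa list. Calb1, the calcium-binding calbindin, had 1172 counts, an interval of 146.3 to 164.1 CPM (0 to 4.43 CPM in the others), Pglyrp1, a peptidoglycan-binding protein, at 439 CPM (0 to 14.8) and Aldh1a7 at 231.4 CPM (0 to 10.4). The lowest were Kdf1, Jade3, Map7d2, Tinf2, Ncbp3 and Cenpf, the last a kinetochore protein at 24.2 CPM against 113.3 to 525. The mitosis list summed to 1463 CPM, below the 1640 CPM of the lowest other library.

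A pair of features ran through all 4 libraries. Xist (ENSMUSG00000086503.4, chrX:103460366-103483254, minus strand), the RNA that coats and silences an X chromosome, stood at 204.8, 440, 542 and 269.9 CPM in libraries 8, 10, 15 and 16. The other 18 ranged from 6.54 to 130.7 CPM with a median of 37.4, so none of the 4 overlapped them. Only in library 15 was Xist at least 4-fold above the highest. In germ cells of the fetal ovary the inactive X is known to be reactivated, whereas somatic cells of females keep it silenced. The 4 Y-linked genes checked had 0 counts in all 22 libraries.

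**Figure D5:**
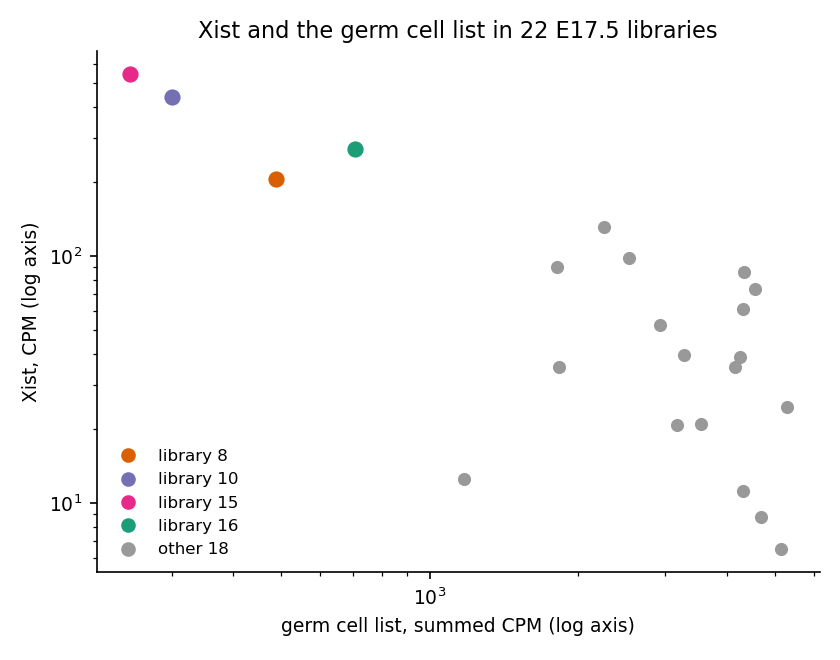
Xist in CPM against the summed CPM of the 6 germ cell markers (both log axes) in the 22 E17.5 libraries, with 1 point per library. The 4 libraries sit at the upper left, at 204.8 to 542 CPM of Xist, and the other 18 sit at 130.7 CPM or less.

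Counts on 2041 X-linked genes made up 2.46, 2.59, 2.6 and 3.08% of libraries 8, 10, 15 and 16. The others ranged from 2.15 to 3.93% with a median of 3.47%. All 4 lay below that median and inside the range, and library 7, a shallow one, was the lowest.

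Glycolysis genes were high in all 4 as well. The 17 genes summed to 9655, 7451, 9119 and 8931 CPM in libraries 8, 10, 15 and 16, against 895 to 7874 CPM in the others with a median of 2049. Library 12 set that highest value, so library 10 overlapped the others and the other 3 did not. Aldoa, an aldolase, stood at 996, 1203, 1099 and 1459 CPM, above the 29.6 to 879 CPM of the others. Gapdh stood at 1745, 1620, 2098 and 1853 CPM, and only library 15 lay above the highest of the others (1935 CPM). Ldha, which makes lactate, stood at 2198, 2468, 1774 and 1364 CPM, and the last lay below the highest of the others (1618 CPM). Ldhb, the form that favours pyruvate, stood at 10.4, 6.65 and 10.5 CPM in libraries 8, 10 and 15 and at 284.9 CPM in library 16.

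Whole profiles followed number blocks as well as cell kinds. Across 16383 genes the Spearman correlation was 0.813 between libraries 8 and 15, and 0.82 between libraries 8 and 10, which share counts. It was 0.803 between libraries 15 and 16 and 0.607 between libraries 10 and 16. Library 8 reached 0.769 to 0.867 with the other libraries of its own block and 0.673 to 0.772 with libraries 11 to 14 and 17 to 22. These values describe genes within libraries that share protocol and, within a block, transcripts, and carry no test.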

How the data were processed

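Per the labels' protocols, each cell gave 1 Smart-seq2 library, read in pairs of 150 bases. The authors deposited a gene-by-cell table of whole-number counts and another of FPKM values. The submitters' processing notes name the build mm10 and the tools RSEM 1.3.3, HTSeq 0.13.5 and STAR 2.7.10b. The tool behind each table, its annotation, its strand setting and its handling of reads that fit several genes were not given in the sources used here. Rows of the count table are 54658 genes and 92 spike-in RNAs, the latter left out of library sizes.

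Libraries were grouped by the stage in the labels. Counts were scaled to CPM, and a gene was called higher where its CPM plus 1 was at least 4 times the highest of the other 18 plus 1, with at least 10 CPM in the library. It was called lower where CPM plus 1 was at most 1 in 4 of the lowest plus 1, with a lowest of at least 10 CPM. The same fold was used against the median. The 4 libraries came from measured values and each is 1 cell, so no test was made. Intervals are exact Poisson intervals of 95% and cover counting error only, since Smart-seq2 reads carry no molecular identifiers and may copy one molecule. Libraries and gene lists were chosen with earlier results of these data known.

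Genes named by rule were the 12 highest per library against the highest of the 18 (at least 50 CPM, without unnamed models, pseudogenes, ribosomal protein and mitochondrial genes), the 6 lowest, and per list up to 4 of the highest members and up to 2 at 0 counts. Other list members named here were chosen after their values were seen. Some genes that the rule names are not reported here. Listed names without a row were Ahsp, Six6os1, Brme1, Iho1 and Shoc1. The deposited FPKM of libraries 4 and 7 matched another column as well as or better than their own counts (Pearson 0.776 and 0.776, 0.736 and 0.765). Alternatives were FPKM, TMM (edgeR 4.0.16) and DESeq2 1.42.0 scaling, thinning, other limits and parts of the reference. Python 3.11.15 and R 4.3.3 were used, and the calls were tested on simulated data.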

Additional observations from a re-analysis of the deposited data

How the results depend on the processing

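Every value here is a description. Shares of genes called moved more than list levels did. With the deposited FPKM, TMM, median-of-ratios scaling or thinning, no list level past 4-fold changed sign. The share of tested genes called higher moved little with scaling, except that FPKM gave 1.73% in library 8 in place of 1.05%. Of genes tested for lower values, FPKM gave 0.466% in library 16, TMM gave 0.432% in library 10 and 0.756% in library 15, median-of-ratios scaling gave 0.316% in libraries 8 and 10 and 0.0351% in library 16, and thinning gave 0.372% in library 8 and 0.409% in library 16. The unchanged shares were 0.184, 2.25, 1.36 and 0.258% lower in libraries 8, 10, 15 and 16.

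A limit of 2-fold gave 3.42, 11.3, 4.5 and 6.37% higher and 2.36, 10.1, 5.38 and 3.95% lower in libraries 8, 10, 15 and 16. A limit of 8-fold gave 0.0955, 2.02, 0.483 and 2.08% higher and 0, 0, 0 and 0% lower. A minimum of 1 CPM gave 0.0692, 0.844, 0.512 and 0.0968% lower. A smaller reference leaves fewer values to exceed, so shares grow by construction. Against libraries 1 to 7 and 9 they were 4.32, 11.8, 6.56 and 10.8% higher and 0.801, 8.48, 7.76 and 5.25% lower. Against libraries 11 to 14 and 17 to 22 they were 3.23% higher in library 8 and 3.08% in library 15, and 1.17, 5.84 and 0.692% lower in libraries 8, 10 and 16. Without libraries 4 and 7, a choice made after seeing the data, they were 1.76% higher and 0.514% lower in library 8 and 0.477% lower in library 16. Leaving out 1 library at a time, also chosen after seeing the data, gave 0.179 to 0.441, 2.24 to 3.5, 1.28 to 2.05 and 0.243 to 0.486% lower. The highest share came without library 7 for library 8 and without library 18 for libraries 10, 15 and 16.

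In library 10 the germ cell list had a log2 ratio to the median of -3.68, which became -2.90 with TMM and -2.95 with median-of-ratios scaling, and the meiotic list went from -3.06 to -2.27 and -2.17. These 2 scalings moved the median gene of library 10 by 0.72 and 0.73 on the log2 scale. They moved that of libraries 8, 15 and 16 by 0.17, 0.23 and 0.11 and by -0.01, 0.12 and 0.18, and FPKM moved that of libraries 15 and 16 by -0.36 and -0.12.

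Directions against the median that turned all did so with the number block of the reference. Against libraries 1 to 7 and 9, the mast cell list of library 10 stood at a log2 ratio of 4.90 and its proteases at 5.12 (9.39 and 12.51 over the 18). In library 8 the ratios became -0.05 for the mast cell, -0.38 for the basophil and -0.15 for the protease list. Its single genes became 0.21 (Amhr2), -0.48 (Cd200r3), -1.76 (Cdh1), -0.17 (Cma1), -0.13 (Cpa3), -0.24 (Cx3cr1), -0.11 (Cyp11a1), -0.61 (Hdc), -0.37 (Prss34), -0.10 (Tpsb2) and -0.22 (Tyrobp). Amhr2 became 0.04 in library 10 and Srgn -0.85 in library 15. Against libraries 11 to 14 and 17 to 22, the protease list became 1.01 in library 15 and 0.20 in library 16, where Cma1 became 0.34, Lhx8 0.24 and Slc18a2 0.06.

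No paired analysis was possible because the replicate numbers only name single cells of 1 stage and no test was made. Each cell kind rests on 1 or 2 libraries, so nothing here measures the spread among cells of a kind.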
